A study of Mus musculus with 14 samples.

Results

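MHC class II presentation genes were followed array by array in regulatory T cells (Tregs) of the mouse, the CD4 T cells in which the transcription factor Foxp3 is active. The 9 genes were H2-Aa, H2-Ab1, H2-Eb1, Cd74, H2-DMa, H2-DMb1, H2-Oa, H2-Ob and Ciita. They and the gene lists below were chosen by name, with earlier results of these data known. Shares of all transcript clusters given beside their counts therefore describe and do not test. All 9 were found among the 22203 transcript clusters (sets of probes that read 1 gene) of the Clariom S mouse array, each with 1 row. The RefSeq gene table places 7 of them in the class II region of chromosome 17.

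Cells came from mixed bone marrow chimeras on the C57BL/6 background. CD45.2+ marrow of Foxp3Cre Atg14+/fl mice (control, labelled het) or of Foxp3Cre Atg14fl/fl mice (labelled KO) was combined 1:1 with CD45.1+ wild-type marrow. The recipients were sublethally irradiated Rag1–/– mice, which have no mature T or B cells of their own but keep macrophages and dendritic cells, and RNA was taken after 6 to 8 weeks of reconstitution. Cre was driven by Foxp3 and carried a YFP reporter, so that control and KO-labelled Tregs alike held Cre and at least 1 floxed Atg14 allele. The sort took cells positive for CD45.2, CD4 and the YFP reporter, and among them central Tregs (cTregs) as CD44low CD62Lhigh and effector Tregs (eTregs) as CD44high CD62Llow cells. There were 4 arrays of control cTregs, 3 of KO-labelled cTregs, 4 of control eTregs and 3 of KO-labelled eTregs. The tissue was spleen and peripheral lymph nodes according to the series description, and spleen according to the methods. The age of the chimeras is given only through the weeks of reconstitution. The study counts as many chimeras per genotype (4 and 3) as there are arrays in each subset, without saying which cTreg and eTreg arrays came from the same mouse.

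Class II molecules carry peptides from the endosome to the cell surface, where CD4 T cells read them. H2-Aa and H2-Ab1 encode the α and β chains of I-A, and H2-Eb1 encodes the β chain of I-E, whose α chain gene, H2-Ea, is not functional in C57BL/6 mice. Cd74, the invariant chain, fills the groove until H2-DM (H2-DMa and H2-DMb1) exchanges its remnant for peptide, and H2-DO (H2-Oa and H2-Ob) restrains H2-DM. Ciita is the coactivator that turns these genes on together. Class II is a hallmark of B cells, dendritic cells and macrophages, and mouse T cells are generally regarded as making little of it.

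Values are log2 signals after robust multi-array average (RMA) summarisation, so that a difference of 1 is a doubling, and levels of different genes are not compared because probes differ. Array medians ran from 8.77 to 8.90. The background control probe sets had array medians of 6.00 to 6.30, and the brightest of them reached 9.51 to 10.07. Ciita did not exceed that brightest background probe set on 13 of the 14 arrays. H2-DMb1 did not exceed it on 9 arrays, among them all 7 of cTregs, and H2-Ab1 fell short of it on 4 of the 7 cTreg arrays, H2-Oa on 3 and H2-Eb1 on 2. Foxp3 (12.74 to 13.12) and Cd3e (13.05 to 13.25) were high on all 14 arrays, whereas Il2ra, another Treg marker, was at 6.94 to 8.44, below every array median. Atg14 itself was not lower in the arrays labelled KO. Its mean was 9.29 ± 0.04 (SD, n = 3) in KO-labelled cTregs against 8.94 ± 0.26 (n = 4) in controls, and 9.16 ± 0.16 (n = 3) in KO-labelled eTregs against 8.84 ± 0.16 (n = 4). Neither difference passed the limma test (adjusted P = 1.00 and 0.551). The study states that it verified Atg14 deletion by quantitative PCR in Tregs sorted from Foxp3Cre Atg14fl/fl mice, without naming the RNA of these arrays. Whether the probes lie in the deleted part is not stated, and the genotype is given below as labelled.

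Promoter sequence shows what the genes share apart from their signals. Class II promoters are known for an X box, bound by RFX, and a Y box holding the letters GATTGG, bound by NF-Y, at a fixed distance, and Ciita works through the proteins assembled there. The RefSeq promoter table (GRCm38.p6, 250 bases before to 50 after each gene start) held promoters for 6 of the 9 genes, without an entry for H2-Ab1, Cd74 or Ciita. The letters AACNNATG followed after 15 to 30 bases by GATTGG, searched on both strands, were found in H2-Eb1, H2-DMb1 and H2-Ob and also in H2-DMb2 and H2-Eb2. Only 22 of 32851 promoters (0.067%) held this pair of motifs. H2-Aa and H2-Oa held the shorter CAAC before GATTGG, at a gap of up to 40 bases, a pair that 1.31% of promoters held. These letters were chosen after the promoters of the class II genes had been read. The windows are printed 5′ to 3′ on the gene's strand, with the X box part and the Y box part in capitals, and lie at chr17:34305772-34305818 (H2-Eb1, plus strand), chr17:34153093-34153140 (H2-DMb1, plus strand), chr17:34238814-34238858 (H2-Ob, plus strand), chr17:34287861-34287909 (H2-Aa, minus strand) and chr17:34092298-34092346 (H2-Oa, plus strand).
H2-Eb1: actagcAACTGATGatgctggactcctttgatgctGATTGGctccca
H2-DMb1: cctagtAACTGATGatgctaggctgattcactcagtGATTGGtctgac
H2-Ob: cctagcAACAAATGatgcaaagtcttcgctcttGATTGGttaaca
H2-Aa: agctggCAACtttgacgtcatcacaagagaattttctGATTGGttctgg
H2-Oa: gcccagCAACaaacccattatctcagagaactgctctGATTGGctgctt

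The gap between both motifs was 21 bases in H2-Eb1, 22 in H2-DMb1 and 19 in H2-Ob. H2-Ob thus held the same pair of letters as H2-Eb1 and H2-DMb1, although its signal did not follow theirs across the arrays. H2-DMa held GATTGG, as 16.1% of all promoters do, but neither pair.

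The 3 chain genes and Cd74 were lowest in cTregs, higher in control eTregs and highest on 2 of the 3 KO-labelled eTreg arrays. H2-Aa read 10.18, 10.18, 10.11 and 10.29 in control cTregs, 10.58, 10.34 and 10.80 in KO-labelled cTregs, 11.17, 11.30, 11.25 and 10.83 in control eTregs, and 10.89, 12.47 and 12.87 in KO-labelled eTregs. H2-Ab1 read 9.24, 9.75, 9.64 and 9.85 in control cTregs, 9.41, 10.16 and 10.03 in KO-labelled cTregs, 10.74, 10.87, 10.82 and 10.61 in control eTregs, and 10.57, 12.40 and 12.78 in KO-labelled eTregs. For both I-A chains every eTreg array lay above every cTreg array. In each case KO-labelled eTreg array 1 sat with or below the control eTregs, while arrays 2 and 3 stood above all others. H2-Eb1 read 9.45, 10.28, 10.08 and 10.29 in control cTregs, 9.76, 10.49 and 10.61 in KO-labelled cTregs, 10.90, 11.28, 11.28 and 10.98 in control eTregs, and 10.74, 12.63 and 13.00 in KO-labelled eTregs. Cd74 read 9.78, 10.64, 10.33 and 10.57 in control cTregs, 10.43, 10.95 and 11.11 in KO-labelled cTregs, 11.17, 11.76, 11.41 and 11.35 in control eTregs, and 11.20, 12.61 and 12.92 in KO-labelled eTregs. For H2-Eb1 and Cd74, too, every eTreg array lay above every cTreg array and arrays 2 and 3 of the KO-labelled eTregs above all others.

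**Figure D1:**
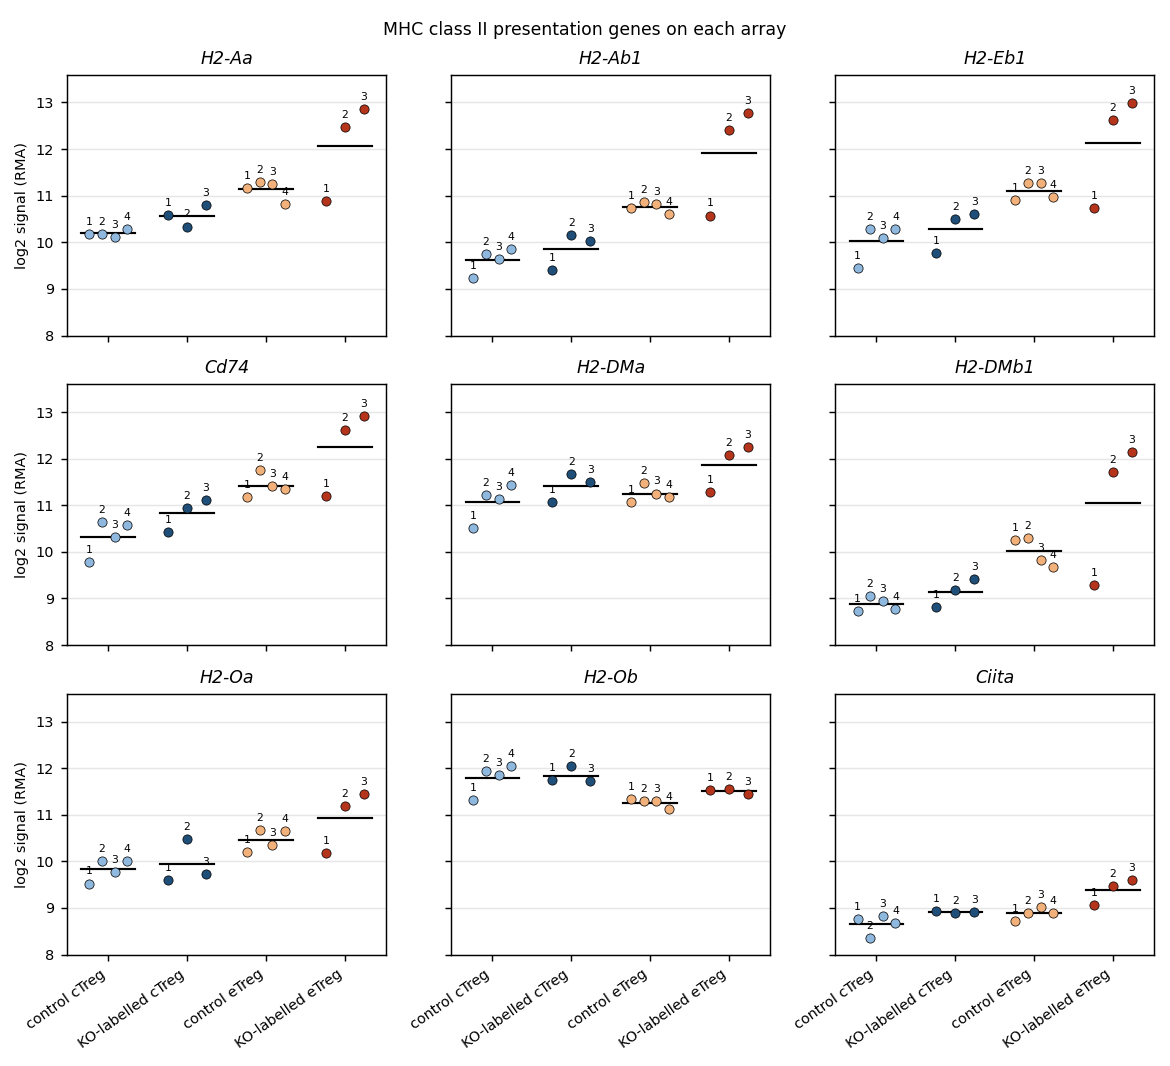
Each panel plots the log2 signal (vertical axis) of 1 class II presentation gene on all 14 arrays, with points numbered by replicate, in 4 groups along the horizontal axis and a black line at each group mean. In H2-Aa, H2-Ab1, H2-Eb1, Cd74, H2-DMb1 and H2-Oa, KO-labelled eTreg arrays 2 and 3 stand above the other 12 arrays while array 1 lies with or below the control eTregs, and H2-Ob keeps between 11.12 and 12.05 throughout.

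The mean of these 4 genes (the chain mean) was 9.66 to 10.25 in control cTregs, 10.04 to 10.64 in KO-labelled cTregs and 10.94 to 11.30 in control eTregs. It was 10.85, 12.53 and 12.89 on the 3 KO-labelled eTreg arrays. The KO-labelled eTreg group therefore held the widest spread of any group, with an SD of 1.05 for H2-Aa, 1.18 for H2-Ab1, 1.21 for H2-Eb1 and 0.91 for Cd74, against 0.21, 0.11, 0.20 and 0.25 in control eTregs.

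H2-DM, the peptide exchanger, gave a different picture for its chains. H2-DMb1 read 8.73, 9.06, 8.94 and 8.78 in control cTregs, 8.82, 9.19 and 9.41 in KO-labelled cTregs, 10.24, 10.30, 9.83 and 9.67 in control eTregs, and 9.28, 11.72 and 12.14 in KO-labelled eTregs. KO-labelled eTreg array 1 lay here within the range of the KO-labelled cTregs. H2-DMb2, a near-identical neighbouring copy whose RNA the probes may not keep apart from that of H2-DMb1, moved in the same way, with group means of 9.51 ± 0.22 (SD, n = 4) in control cTregs, 9.68 ± 0.51 (n = 3) in KO-labelled cTregs, 10.60 ± 0.22 (n = 4) in control eTregs and 11.68 ± 1.07 (n = 3) in KO-labelled eTregs, so either row is uncertain as the measure of 1 gene. H2-DMa overlapped between cTregs and eTregs in both genotypes. It read 10.52, 11.23, 11.13 and 11.43 in control cTregs, 11.07, 11.66 and 11.49 in KO-labelled cTregs, 11.06, 11.47, 11.25 and 11.17 in control eTregs, and 11.28, 12.07 and 12.25 in KO-labelled eTregs.

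The chains of H2-DO parted from each other. H2-Oa followed the classical chains with smaller steps, reading 9.53, 10.01, 9.77 and 10.02 in control cTregs, 9.61, 10.49 and 9.73 in KO-labelled cTregs, 10.19, 10.67, 10.36 and 10.65 in control eTregs, and 10.19, 11.18 and 11.44 in KO-labelled eTregs. H2-Ob read 11.32, 11.94, 11.85 and 12.05 in control cTregs, 11.74, 12.05 and 11.72 in KO-labelled cTregs, 11.35, 11.29, 11.30 and 11.12 in control eTregs, and 11.54, 11.55 and 11.45 in KO-labelled eTregs. It was the only one of the 9 genes whose mean was lower in eTregs than in cTregs, and it did not stand out on KO-labelled eTreg arrays 2 and 3.

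Ciita, the coactivator, read 8.77, 8.37, 8.82 and 8.68 in control cTregs, 8.94, 8.89 and 8.92 in KO-labelled cTregs, 8.72, 8.88, 9.03 and 8.90 in control eTregs, and 9.06, 9.48 and 9.59 in KO-labelled eTregs. Its signal was near the array median, and its means over the 4 groups spanned 8.66 to 9.38. The KO-labelled eTregs did not overlap with any other group, although the step was small.

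The first comparison asked how eTregs differ from cTregs in control cells. Under the adjusted threshold (an absolute log2 change of at least 0.5 with an adjusted P below 0.05), 1 of the 9 genes was called, against 3.06% of all transcript clusters in either direction. The call was H2-Ob, which was lower in control eTregs (a log2 change of -0.53 ± 0.14, SE, adjusted P = 0.0462), as 0.919% of all transcript clusters were, even though array 1 of the control cTregs lay within the eTreg range. The threshold that the study also used, with an unadjusted P, was passed by 6 genes in the higher direction, against 3.3% of all transcript clusters. These 6 were H2-Ab1 (1.14 ± 0.34, adjusted P = 0.0840), H2-DMb1 (1.13, adjusted P = 0.207), Cd74 (1.09, adjusted P = 0.0538), H2-Eb1 (1.08, adjusted P = 0.147), H2-Aa (0.95, adjusted P = 0.101) and H2-Oa (0.64, adjusted P = 0.225). For each of them all 4 control eTreg arrays lay above all 4 control cTreg arrays, as was true of 6.12% of all transcript clusters in that direction. H2-DMa (0.16) and Ciita (0.23) overlapped between the groups. In a fit on the 8 control arrays alone, whose estimate of the spread leaves out the KO-labelled eTregs, 6 genes were called, all higher in eTregs, with adjusted P values from 0.000189 (H2-Ab1) to 0.0179 (H2-Oa), and H2-Ob was not. This fit called 893 of all transcript clusters, against 680 in the fit of all arrays. A fit without KO-labelled eTreg array 1 also called 6 of the 9 genes, H2-Aa, H2-Ab1, H2-Eb1, Cd74 and H2-DMb1 higher and H2-Ob lower, whereas a fit without array 3 called H2-Aa, H2-Ab1 and Cd74 only (3 genes). The call of H2-Ob was lost, leaving 0, without any 1 of control cTreg arrays 2, 3 and 4, of the 4 control eTreg arrays, of KO-labelled cTreg arrays 1 and 3, and of KO-labelled eTreg array 2. With the replicate number as a block, as if same-numbered cTreg and eTreg arrays came from the same mouse, H2-Ab1 (adjusted P = 0.0163), H2-Eb1 (0.0174) and Cd74 (0.00468) were called higher (3 genes), and H2-Ob was not called (0.0757). The block called 739 of all transcript clusters.

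The same comparison in KO-labelled cells gave a higher log2 change for each gene, although the difference from controls (the interaction, given with the genotypes) passed for none of them. Here 5 of 9 genes were called, all higher in eTregs, against 2.02% of all transcript clusters in that direction. They were H2-Ab1 (a log2 change of 2.05 ± 0.39, adjusted P = 0.00886), H2-DMb1 (1.91 ± 0.48, adjusted P = 0.0492), H2-Eb1 (1.83 ± 0.42, adjusted P = 0.0278), H2-Aa (1.50 ± 0.33, adjusted P = 0.0243) and Cd74 (1.41 ± 0.34, adjusted P = 0.0397). H2-DMb2 was called as well (2.01, adjusted P = 0.00784). H2-Oa (1.00, adjusted P = 0.0786), Ciita (0.46, adjusted P = 0.132), H2-DMa (0.46, adjusted P = 0.449) and H2-Ob (-0.33, adjusted P = 0.387) did not pass. All 3 KO-labelled eTreg arrays lay above all 3 cTreg arrays for H2-Aa, H2-Ab1, H2-Eb1, Cd74 and Ciita, as for 6.46% of all transcript clusters, and below them for H2-Ob, as for 7.49%. A fit on the 6 KO-labelled arrays alone called 0 of 9, with the same log2 changes and adjusted P values of 0.127 (H2-Ab1) to 0.290 (H2-DMb1) for the 5 genes called above. This fit called 133 of all transcript clusters, against 522 in the fit of all arrays. The replicate block called 6 class II genes, with H2-Oa added (adjusted P = 0.0217), and 647 of all transcript clusters. The count of class II genes also depended on single arrays. It was 0 without KO-labelled cTreg array 1, KO-labelled eTreg array 2 or KO-labelled eTreg array 3, 1 without KO-labelled cTreg array 3, 2 without KO-labelled cTreg array 2, 3 without array 3 or 4 of either control group, and 7 without KO-labelled eTreg array 1. With the 2 high arrays of KO-labelled eTregs left out together, 0 were called and H2-Ab1 differed by 0.71.

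**Figure D2:**
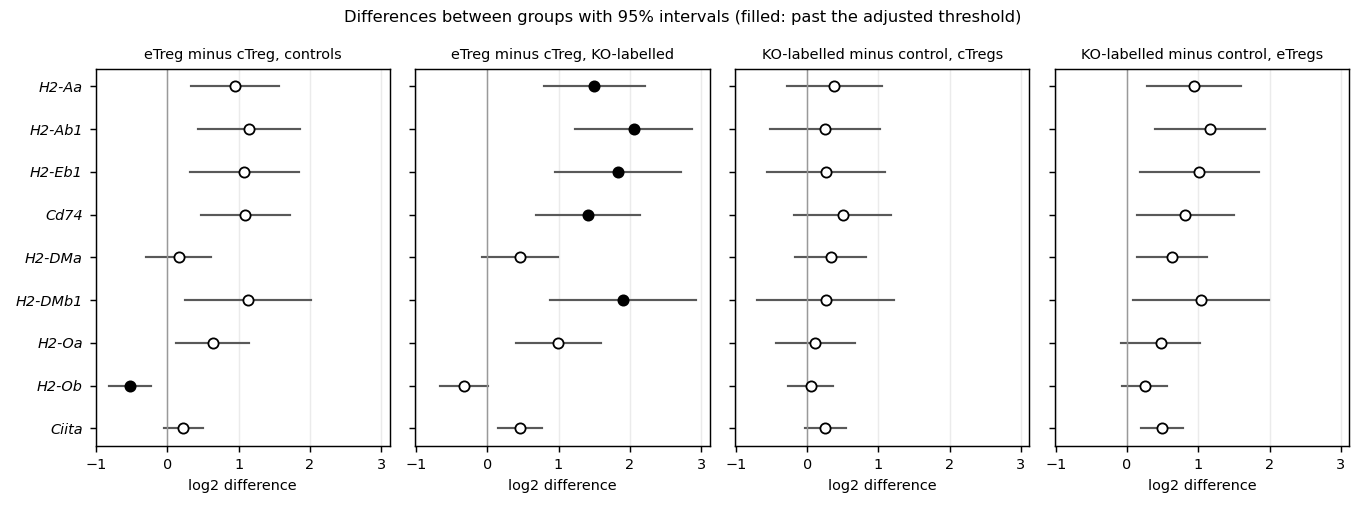
Points give the log2 difference of each of the 9 genes in 4 comparisons, lines give the 95% intervals of the limma fit and filled points passed the adjusted threshold. H2-Aa, H2-Ab1, H2-Eb1, Cd74 and H2-DMb1 are filled in the KO-labelled comparison of eTregs with cTregs, H2-Ob is filled on the lower side in controls, and no point is filled in the 2 panels that compare genotypes.

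The genotype comparison asked whether Tregs labelled KO differed from control Tregs of the same subset. In cTregs 0 of 9 genes passed either threshold, against 0.045% of all transcript clusters under the adjusted one and 0.576% under that of the study, and 0 had an unadjusted P below 0.05 in limma, against 4.01%. All 9 means were higher in KO-labelled cTregs, by 0.05 (H2-Ob) to 0.50 (Cd74), where 54.8% of all transcript clusters were higher. For Cd74 the 95% interval of the difference ran from -0.18 to 1.18, so a doubling was within what these arrays allow. The groups did not overlap for H2-Aa and Ciita, as for 2.7% of all transcript clusters in that direction.

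In eTregs 0 of 9 genes passed the adjusted threshold, against 0.117% of all transcript clusters, and 7 had an unadjusted P below 0.05 in limma, all of them higher in KO-labelled cells, against 8.03% in either direction. The study's threshold was passed by 6, against 1.9% of all transcript clusters in that direction. Their log2 changes were 1.16 for H2-Ab1 (adjusted P = 0.312), 1.04 for H2-DMb1 (0.569), 1.01 for H2-Eb1 (0.476), 0.94 for H2-Aa (0.359), 0.82 for Cd74 (0.489) and 0.63 for H2-DMa (0.445), and all 6 overlapped between the groups. Only H2-Ob (0.25, adjusted P = 0.751) and Ciita (0.49, adjusted P = 0.251) had no overlap, both higher in KO-labelled eTregs, where 3.01% of all transcript clusters had none. The difference between the genotype effects in eTregs and in cTregs (the interaction) passed neither threshold for any of the 9 genes, against 0% and 3.05% of all transcript clusters, and 0 had an unadjusted P below 0.05 in limma, against 6.12%, with values from 0.20 (H2-Ob) to 0.91 (H2-Ab1) and adjusted P values of 0.847 to 0.941.

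The comparison in eTregs differed between the KO-labelled arrays. Relative to the mean of control eTregs, H2-Ab1 was 0.19 lower on KO-labelled eTreg array 1 but 1.64 and 2.02 higher on arrays 2 and 3. H2-DMb1 was 0.73 lower on array 1 and 1.71 and 2.13 higher on the others, and H2-Aa was 0.25 lower and then 1.34 and 1.73 higher. On array 1, 4 of the 9 genes were below the range of the control eTregs, 3 within it and 2 (H2-Ob and Ciita) above it, where 19.9% of all transcript clusters were below and 22.4% above. On arrays 2 and 3 all 9 were above it, as were 23.9% and 19.1% of all transcript clusters. Without array 1, 7 genes were called in eTregs (452 of 22203 transcript clusters in all), namely H2-DMb1 (1.92, adjusted P = 2.4e-05), H2-Ab1 (1.83), H2-Eb1 (1.70), H2-Aa (1.53), Cd74 (1.34), H2-DMa (0.92) and Ciita (0.65), and the interaction was called for H2-Aa, H2-Ab1 and H2-DMb1. With arrays 2 and 3 left out instead, H2-Aa (-0.25), H2-Ab1 (-0.19), H2-Eb1 (-0.37), Cd74 (-0.22), H2-DMb1 (-0.73) and H2-Oa (-0.28) were lower than in control eTregs.

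The wider pathway was divided by role. Class II transcription and the induction of Ciita were represented by 18 genes, including the RFX and NF-Y subunits and Irf1. The control comparison of subsets called 3.06% of all transcript clusters in either direction. In controls Irf4, a transcription factor of activated T cells, was higher in eTregs (0.86, adjusted P = 0.00958) and Ifngr2, a chain of the interferon-γ receptor, was lower (-0.62, adjusted P = 0.00244), while in the KO-labelled subset comparison and between genotypes 0 of 18 passed the adjusted threshold in limma (7, 3 in eTregs and 2 in cTregs had an unadjusted P below 0.05, against 13.8%, 8.03% and 4.01% of all transcript clusters). The median change of the 18 lay between -0.03 and 0.06 in these 4 comparisons, close to the medians of all transcript clusters (-0.04 to 0.02). Rfx5, the DNA-binding RFX subunit, read 10.79, 11.23 and 10.44 in KO-labelled eTregs against 10.01 to 10.74 in control eTregs, highest of all arrays on array 2 but within the control range on array 3. Irf4 read 9.81, 10.51 and 10.57 against 9.76 to 10.26, and was highest of all arrays on arrays 2 and 3.

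Processing, traffic and turnover genes behaved more like the class II genes. Of 18 (proteases, the reductase Ifi30, tetraspanins, ubiquitin ligases), 2 were called higher in control eTregs than in control cTregs, the tetraspanin Cd82 (0.72, adjusted P = 0.000497) and the cathepsin gene Ctsb (0.69, adjusted P = 0.0345). Over all transcript clusters 3.06% were called there in either direction. The KO-labelled comparison called 3, again Cd82 (0.57) and Ctsb (0.92) and also Cd63 (1.68, adjusted P = 0.0486), against 2.02% of all transcript clusters in the higher direction. Between genotypes in eTregs 0 of 18 passed the adjusted threshold of limma, 8 had an unadjusted P below 0.05 and 6 passed the threshold of the study, all higher, Cd63, Ctsh, Lgmn, Ifi30, Ctsd and Ctsz. The shares of all transcript clusters were 0.117%, 8.03% and 1.9%, the last in the higher direction. Lgmn, an endosomal protease, showed the same division of arrays, reading 11.41, 12.88 and 12.61 in KO-labelled eTregs against 11.15 to 11.45 in control eTregs. Ctss, the cathepsin that trims the invariant chain, ran only from 11.28 to 11.90 over all 14 arrays.

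Genes that act with class II at the T cell surface or in costimulation numbered 9. For comparison, 3.06% of all transcript clusters were called in either direction between the control subsets. Cd80 (1.61, adjusted P = 0.000448), a ligand of Ctla4 and Cd28, Lag3 (1.29, adjusted P = 0.000263), an inhibitory receptor that binds class II, Cd83 (0.67, adjusted P = 0.000273) and Pdcd1lg2 (0.52, adjusted P = 0.00403) were higher in control eTregs than in control cTregs. Cd80 (1.22, adjusted P = 0.0193) and Lag3 (1.05, adjusted P = 0.00784) passed in KO-labelled cells too, where 2.02% of all transcript clusters were called higher. Between genotypes in eTregs 0 of 9 were called by limma (1 with an unadjusted P below 0.05), against 0.117% and 8.03% of all transcript clusters, and the median change was -0.09. Cd86, another ligand of Ctla4 and Cd28, nevertheless divided the arrays as the class II genes did, at 9.78, 11.05 and 11.07 in KO-labelled eTregs against 9.37 to 10.43 in control eTregs.

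Class I presentation served as the parallel pathway. None of its 21 measured genes (of 23 listed) passed the adjusted threshold of limma in any of the 5 comparisons (0 of 21, with 0 to 3 at an unadjusted P below 0.05). Of all transcript clusters 3.06% were called between control subsets, 0.117% and 0.045% between genotypes in eTregs and cTregs, and 0% in the interaction. Between KO-labelled subsets 2.02% were called higher. A count of 0 of 21 is near these shares. Changes of the 21 between eTregs and cTregs ran from -0.29 to 0.10 in controls and from -0.23 to 0.22 in KO-labelled cells. The single gene that passed the study's threshold was H2-M3, a nonclassical class I gene, in both genotype comparisons (0.68 in eTregs and 0.63 in cTregs). The class I and class II processing genes lie side by side, which allowed a comparison along the chromosome. Of the 16 genes annotated from H2-Oa to H2-Ea in GRCm38.p6, 15 were measured. The 5 that belong to neither class II nor its copies, Brd2, Psmb9, Tap1, Psmb8 and Tap2, differed between eTregs and cTregs by -0.17 to -0.01 in controls and by -0.14 to 0.02 in KO-labelled cells, with 0 called. H2-DMb1, next to Psmb9 on one side of this block, differed by 1.13 and 1.91, and H2-Ob, next to Tap2 on the other side, by -0.53 and -0.33. H2-Eb2 and H2-Ea-ps, the row of the nonfunctional I-E α gene, were at 7.74 to 8.83 and were called in no comparison.

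**Figure D3:**
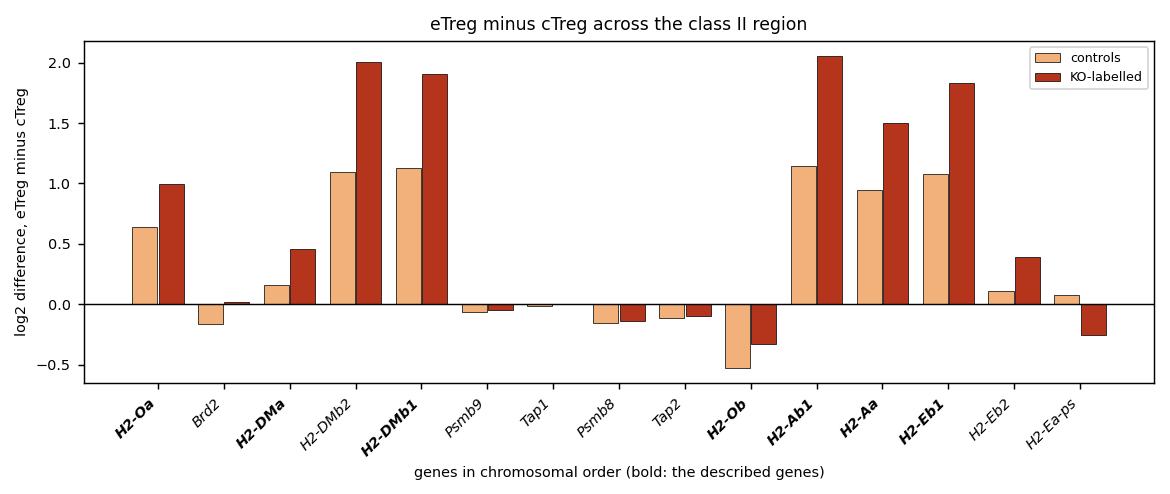
Bars give the log2 difference between eTregs and cTregs, in controls and in KO-labelled cells, for the 15 measured genes of the class II region in chromosomal order, without scale for distance. H2-DMb1, H2-DMb2, H2-Ab1, H2-Aa and H2-Eb1 reach 0.95 to 2.05, whereas the block from Psmb9 to Tap2 between them stays between -0.15 and 0.01, and H2-Ob is negative in both genotypes.

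Genes of cells that are rich in class II moved with these results. The list of 26 monocyte and macrophage genes had a mean log2 signal of 7.93 to 8.00 in control cTregs, 8.03 to 8.17 in KO-labelled cTregs and 8.61 to 8.91 in control eTregs, and of 8.36 to 10.34 in KO-labelled eTregs, with array 1 at the low end. Summed on the linear scale and expressed as log2, the list ran from 12.81 to 12.89, 12.95 to 13.10, 13.68 to 14.04 and 13.35 to 15.61 in the same order. Csf1r, the receptor that macrophages depend on, read 9.24, 9.70, 9.18 and 9.12 in control eTregs, 8.99, 11.90 and 11.69 in KO-labelled eTregs, and 7.65 to 8.62 in cTregs. C1qa, a complement gene of tissue macrophages, read 9.71, 10.32, 9.74 and 9.66 in control eTregs, 8.84, 12.10 and 12.18 in KO-labelled eTregs, and 7.76 to 8.84 in cTregs. Like the chain mean, both genes were highest on KO-labelled eTreg arrays 2 and 3 and lower on array 1 than on any control eTreg array. Of the 26, at most 1 exceeded the brightest background probe set on any cTreg array, and 1 to 6 did on control eTreg arrays. On KO-labelled eTreg arrays 1, 2 and 3 it was 1, 18 and 20. Csf1r did not exceed it on control eTreg arrays 1, 3 and 4 or on KO-labelled eTreg array 1, which limits what the lower values show.

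Of the 26, 2 (Axl and Slc40a1) were called higher in control eTregs than in control cTregs, against 3.06% of all transcript clusters in either direction. For 17 all control eTreg arrays lay above all control cTreg arrays, as for 6.12% of all transcript clusters. At most 6 of the 26 exceeded the brightest background probe set on any of these arrays. In the KO-labelled comparison 11 were called higher, among them Mrc1, C1qa, Csf1r, Adgre1 and Tyrobp, against 2.02% of all transcript clusters. Between genotypes in eTregs 0 were called by limma, 15 had an unadjusted P below 0.05 and 14 passed the study's threshold, all 14 higher. The shares of all transcript clusters were 0.117%, 8.03% and 1.9%, the last in the higher direction. The median change was 0.97 over the 26 beside 0.82 over the 9 class II genes and -0.02 over all transcript clusters. Relative to control eTregs the median of the 26 was -0.32 on KO-labelled eTreg array 1 and 1.57 and 1.61 on arrays 2 and 3, beside -0.22, 1.18 and 1.49 for the 9 class II genes. Fewer cells of a type and less RNA per cell cannot be told apart in such bulk samples, and the part of monocyte and macrophage RNA in the class II signals was not tested. The sort took cells positive for CD45.2, CD4 and the YFP reporter, and its purity was not tested here.

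**Figure D4:**
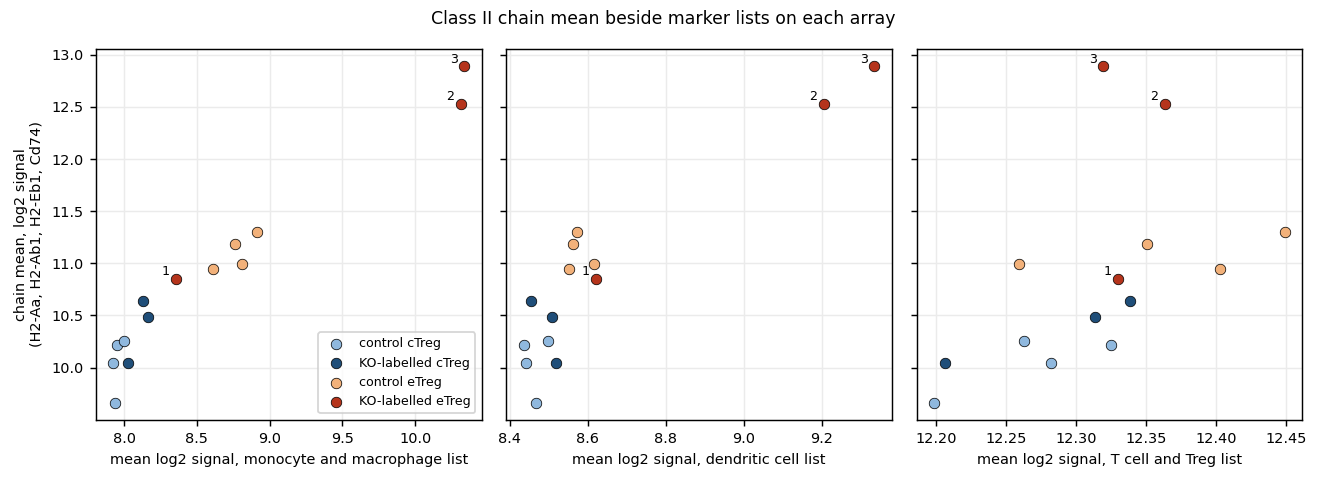
Each point is 1 array, with the chain mean (mean log2 signal of H2-Aa, H2-Ab1, H2-Eb1 and Cd74) on the vertical axis and the mean log2 signal of a marker list on the horizontal axis, whose range differs between panels, and the KO-labelled eTregs are numbered. Arrays with a high chain mean also have a high monocyte and macrophage mean (up to 10.34), whereas the T cell and Treg list covers only 12.20 to 12.45.

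The other lists had smaller differences between groups. The 19 dendritic cell genes had means of 8.44 to 8.50 in control cTregs, 8.46 to 8.52 in KO-labelled cTregs, 8.55 to 8.62 in control eTregs and 8.62 to 9.34 in KO-labelled eTregs. Siglech, a marker of plasmacytoid dendritic cells, was called in KO-labelled eTregs against both KO-labelled cTregs (2.22, adjusted P = 2.5e-05) and control eTregs (1.78, adjusted P = 0.000483), and unlike the chains it was high on KO-labelled eTreg array 1 as well (9.78, against 10.79 and 10.65 on the others and 8.37 to 8.86 in control eTregs). Itgax, Fscn1 and Tcf4 were the other dendritic cell genes called in the KO-labelled comparison of subsets, where 2.02% of all transcript clusters were called higher. Between genotypes in eTregs 10 of 19 passed the study's threshold, all higher, against 1.9% of all transcript clusters in that direction. On KO-labelled eTreg arrays 2 and 3, 14 and 15 of the 19 were above the control eTreg range, as were 23.9% and 19.1% of all transcript clusters. On array 1 it was 4 of 19, near the 22.4% of all transcript clusters there. Cd209a (9.26, 9.94 and 11.41, against 8.91 to 9.38 in control eTregs) and Xcr1 (7.30, 7.78 and 8.49, against 6.98 to 7.42), genes of conventional dendritic cells, divided the arrays in this way, whereas Flt3 (6.81 to 7.58) and Zbtb46 (9.02 to 9.33), which define these cells as well, stayed within narrow ranges over all arrays. Xcr1, Flt3 and Zbtb46 did not exceed the brightest background probe set (9.51 to 10.07) on any array, which limits what their ranges show. The summed list, as log2, was 13.28 to 13.43 in control cTregs, 13.33 to 13.41 in KO-labelled cTregs, 13.30 to 13.38 in control eTregs and 13.51 to 14.17 in KO-labelled eTregs. The mean of 17 B cell genes was 8.41 to 8.73 in control cTregs, 8.61 to 8.67 in KO-labelled cTregs, 8.75 to 8.86 in control eTregs, and 8.82, 9.19 and 9.20 in KO-labelled eTregs, and the sum as log2 was 13.67 to 13.92, 13.71 to 13.88, 13.85 to 14.00 and 13.88 to 14.29. On KO-labelled eTreg arrays 1, 2 and 3, 4, 9 and 9 of the 17 were above the control eTreg range, beside 22.4%, 23.9% and 19.1% of all transcript clusters. Ms4a1, a defining marker, was below every array median (7.83 to 8.54), and Cd79a, a part of the B cell receptor, above it (9.01 to 9.64). On most arrays Cd79a did not exceed the brightest background probe set either. The part of dendritic cell and B cell RNA in the class II signals was not tested. Of the 17, Cd22 was called in both comparisons of eTregs with cTregs and Ly86 in that of KO-labelled cells. The 9 neutrophil genes had 0 calls in any comparison by limma (0 to 2 at an unadjusted P below 0.05). Of 9 genes of CD8 T cells and NK cells, Nkg7, Klrb1c, Prf1 and Cd8b1 were called in the control comparison of subsets, 2 higher and 2 lower in eTregs, and Nkg7 and Klrb1c were called higher in that of KO-labelled cells. In the T cell and Treg list, Ctla4 and Ikzf2 were called higher in control eTregs than in control cTregs, and in the other 4 comparisons 0 of 14 were called (0 to 3 at an unadjusted P below 0.05). Over all transcript clusters 3.06% were called in either direction between control subsets, and 2.02% were called higher in KO-labelled eTregs than in KO-labelled cTregs. Between genotypes 0.117% were called in eTregs and 0.045% in cTregs, and 0% in the interaction, so counts of 0 in these short lists are near the shares.

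**Figure D5:**
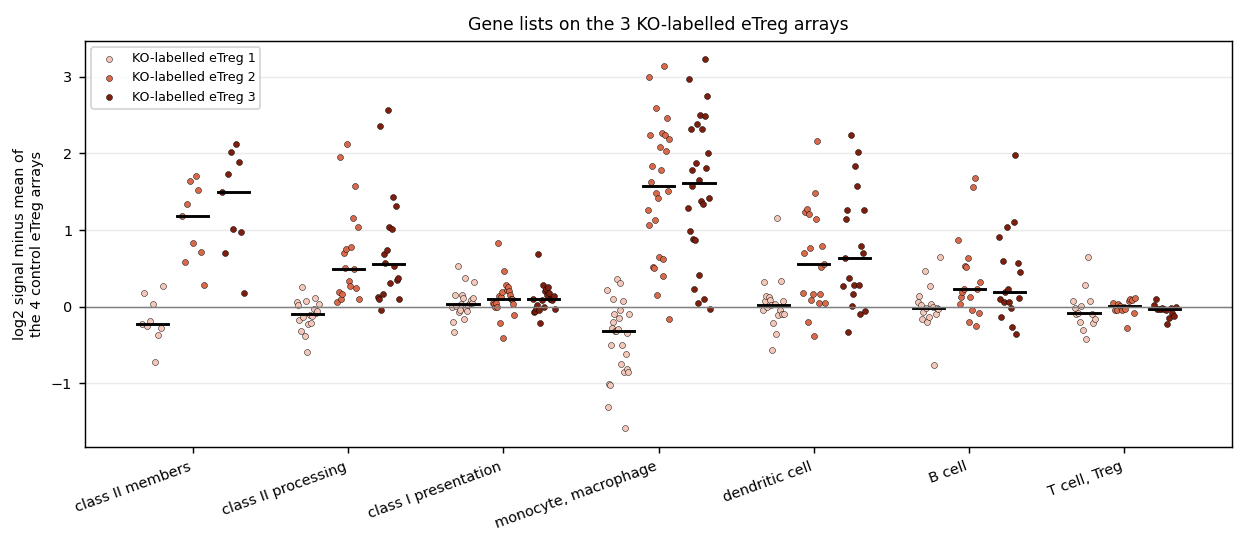
Each point is 1 gene of a list on 1 of the 3 KO-labelled eTreg arrays, as its log2 signal minus the mean of the 4 control eTreg arrays (vertical axis), with a black line at the median of each list and array. The class II genes (medians -0.22, 1.18 and 1.49) and the monocyte and macrophage genes (medians -0.32, 1.57 and 1.61) show the same division between array 1 and arrays 2 and 3, whereas the medians of class I presentation and T cell genes stay between -0.09 and 0.11, with single genes up to 0.83.

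The transcript clusters most like the chain mean over the 14 arrays, by Pearson correlation and without any of the 9 genes, were C1qa (0.983), Pld4 (0.979), Mpeg1 (0.976), Ly86 (0.975), Tyrobp (0.974), Csf1r (0.972), Ear12 (0.969), Pik3ap1 (0.969), Aif1 (0.967) and H2-DMb2 (0.967). C1qa, Tyrobp, Csf1r and Aif1 belong to the monocyte and macrophage list, and Mpeg1 encodes a pore-forming protein of macrophages. Ly86 belongs to the B cell list. With the group means subtracted, so that only differences among arrays of a group counted, the 10 were Rtn1 (0.978), C1qa (0.974), Timd4 (0.971), Psap (0.970), AF251705 (0.969), Apoe (0.961), Uap1l1 (0.958), Mpeg1 (0.954), Fam213b (0.953) and Ctsz (0.953). Timd4 and Apoe are also known from tissue macrophages. Among the 9 genes themselves, H2-DMb1 (0.976) and H2-Oa (0.927) followed the chain mean closely, Ciita (0.829) and H2-DMa (0.828) less so, and H2-Ob ran the other way (-0.378, or 0.218 with the group means subtracted). These values describe 14 arrays that share the differences between 4 groups, and without KO-labelled eTreg arrays 2 and 3 the chain mean covered only 9.66 to 11.30.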

How the data were processed

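Total RNA of sorted cTregs and eTregs was labelled with the WT Plus kit and hybridised to 14 Clariom S mouse arrays. The authors summarised probes by robust multi-array average in Affymetrix Expression Console 1.1, per the labels and methods, and deposited 1 matrix of log2 signals. Scans were not used here, and the genome build behind the identifiers is not given in the sources used here. After removal of 6640 control probe sets and 3 entries without a symbol from 28846, all 22203 transcript clusters were tested without a filter. Groups were taken from the sample titles. For each transcript cluster limma 3.58.1 fitted 4 group means (lmFit and eBayes in R 4.3.3, with 10 residual and 5.65 prior degrees of freedom), from which 5 contrasts were drawn. Tests were two-sided, and P values were adjusted by the method of Benjamini and Hochberg over the 22203 transcript clusters. The procedure was tested on simulated data. The class II genes and all gene lists were chosen with earlier results of these data known. Gene lists, of which 2 symbols were matched through RefSeq accessions, were described by counts and medians. Named are the class II genes, list genes that passed a threshold or define a list, and the 10 transcript clusters most correlated with the chain mean, with and without group means. The number of arrays limits the precision. Alternatives covered a signal filter, scaling, array weights, a variance trend, the samples fitted, replicate blocks and leaving out arrays. Averaging several rows of a gene was not needed, since each class II gene had 1 row. Some list genes enter the counts and are not reported here individually.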

Additional observations from a re-analysis of the deposited data

How the results depend on the processing

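The number of called class II genes in control eTregs against control cTregs was 1 as reported, beside 680 of all transcript clusters. It was 2 with the filter on low signals (beside 431 of all transcript clusters), with 75th percentiles subtracted (695) or with an intensity trend (723). It was 7 with array weights (964), 6 with only the groups compared (893) and 0 to 6 with single arrays left out. In KO-labelled cells (5 as reported, beside 522 of all transcript clusters) it was 3 with array medians subtracted (454), 0 with only the groups compared (133) and 0 to 7 with single arrays left out. Between genotypes in eTregs (0 as reported, beside 26 of all transcript clusters) it was 7 with array weights (435) and 0 to 7 with single arrays left out. The array weights were 0.39 for KO-labelled eTreg array 1 and 0.77 and 1.52 for arrays 2 and 3. With single arrays left out, 7 was reached only without that array 1, so both settings lessen the same array. The weights were also low for KO-labelled cTreg array 1 (0.36) and control eTreg array 1 (0.49). Which arrays account for the 7 calls with array weights was not tested. In cTregs it stayed at 0 (0 to 0), and the interaction gave 0 to 3. Ciita fell below the filter, and the interaction has no fit on 2 groups.

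Same-numbered cTreg and eTreg arrays of a genotype correlated at 0.04 to 0.30 in their deviations from the group means, 5 of 7 above 0.1, and same-numbered arrays of both genotypes at 0.01 to 0.29, 4 of 6 above 0.1. Of 7 cTreg arrays, 6 correlated best with the eTreg array of their own number. No source states that a number marks a mouse, so the numbers were not taken as pairs in the values reported. With the number as a fixed replicate block the count was 3 in control and 6 in KO-labelled cells, beside 739 and 647 of all transcript clusters. With the number as a random block the count was 5 (beside 833 of all transcript clusters) and 6. It stayed at 0 between genotypes and in the interaction.

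Without KO-labelled eTreg arrays 2 and 3, a setting chosen after the data were seen, the signs turned for H2-DMa between the KO-labelled subsets (-0.13). They also turned between genotypes in eTregs for H2-Aa (-0.25), H2-Ab1 (-0.19), H2-Eb1 (-0.37), Cd74 (-0.22), H2-DMb1 (-0.73) and H2-Oa (-0.28), and in the interaction for H2-Aa (-0.63), H2-Ab1 (-0.43), H2-Eb1 (-0.63), Cd74 (-0.72), H2-DMa (-0.29), H2-DMb1 (-0.99), H2-Oa (-0.39) and Ciita (-0.080). The array left alone in its group was assumed to vary like the others. With single arrays left out, signs turned only in uncalled differences, those of H2-DMa in controls (-0.026 to 0.28), of H2-Oa (-0.16 to 0.28) and H2-Ob (-0.11 to 0.14) between genotypes in cTregs and of Cd74 in the interaction (-0.020 to 0.84). Causes other than the arrays left out were not tested. Signals no higher than the brightest background probe set limit Ciita, and in cTregs H2-DMb1, H2-Ab1, H2-Oa and H2-Eb1.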
